A study of Mus musculus with 2 samples.

Results

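The miR-199 and miR-214 microRNA (miRNA) genes were examined in small RNA libraries from whole hearts of mouse embryos. The 4 genes are Mir214, Mir199b, Mir199a-2 and Mir199a-1, chosen by name and matched by Ensembl gene ID among 1973 counted miRNA genes. The only group was healthy heart at embryonic day 11.5 from strain B6NCrl, with males and females pooled. It comprised 2 libraries, given by the labels as biological replicates 1 and 2; hearts of 109 embryos went into replicate 1, and the labels name no such number for replicate 2. Tissue samples were separate, but nothing states separate litters, so the spread between the libraries may be partly technical. RNA was size-selected below 30 nt.

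A miRNA gene gives a hairpin RNA, from which a 5p and a 3p arm are cut; each arm guides repression of mRNAs that pair with its seed, bases 2 to 8. Mir214 and Mir199a-2 are carried by Dnm3os, a long noncoding RNA transcribed from the strand opposite to Dnm3 and driven in mouse by the mesenchymal factor Twist1. Mouse embryos without Dnm3os have defects of skeletal growth. In rodent heart muscle cells, miR-199a-5p is known to repress Hif1a and Sirt1, miR-199a-3p to promote proliferation, and miR-214 to repress the sodium-calcium exchanger Ncx1. These genes are often described as mesenchymal; whole hearts do not show which cells held the RNA, and fewer cells of a type cannot be told apart from less RNA per cell.

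The 4 hairpins are printed because the sequence they share bears on what their counts measure. They come from RefSeq (GRCm38.p6), written 5′ to 3′ with the arms the table lists in capitals. All 4 had a hairpin there, at the coordinates of the GENCODE M21 gene. The arm miR-199b-5p is named only.
Mir214 (chr1:162223368-162223477, + strand): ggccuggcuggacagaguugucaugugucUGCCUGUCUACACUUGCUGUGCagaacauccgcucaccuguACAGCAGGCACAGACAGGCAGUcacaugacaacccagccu
Mir199b (chr2:32318460-32318569, + strand): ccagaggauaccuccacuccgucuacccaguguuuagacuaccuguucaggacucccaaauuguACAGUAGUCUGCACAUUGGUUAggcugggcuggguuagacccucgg
Mir199a-2 (chr1:162217814-162217923, + strand): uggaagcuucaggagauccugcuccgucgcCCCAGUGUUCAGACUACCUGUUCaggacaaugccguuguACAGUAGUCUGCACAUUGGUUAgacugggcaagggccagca
Mir199a-1 (chr9:21496495-21496564, - strand): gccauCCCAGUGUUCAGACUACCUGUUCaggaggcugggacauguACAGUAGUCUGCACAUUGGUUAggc

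The mature arms follow with their seeds in capitals, ordered so that arms with the same seed stand together, since arms with the same seed pair with the same kind of target site.
miR-214-3p: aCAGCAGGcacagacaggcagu
miR-761: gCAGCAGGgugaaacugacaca
miR-214-5p: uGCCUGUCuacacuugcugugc
miR-199a-5p: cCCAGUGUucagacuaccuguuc
miR-199a-3p: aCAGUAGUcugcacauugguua
miR-199b-3p: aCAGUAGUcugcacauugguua

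The sequence of miR-199a-3p was the same as that of miR-199b-3p and occurred in 3 hairpins, those of Mir199a-1, Mir199a-2 and Mir199b. The sequence of miR-199a-5p occurred in 2 hairpins, Mir199a-1 and Mir199a-2. The matching stretch of the Mir199b hairpin, bases 26 to 48, was cccaguguuUagacuaccuguuc and occurred in 1 hairpin only of the 1005 in the table. It differed from miR-199a-5p by the substitution C10U, counted from the 5′ end of the arm, which lies outside the seed. Both arms of Mir214 occurred in its own hairpin alone. Among the table's 1738 mature entries, miR-761 was the only arm of another gene with any of these seeds; its gene, Mir761, had 0 counts in both libraries, which allows up to 0.162 CPM in replicate 1 and 1.49 CPM in replicate 2.

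**Figure D1:**
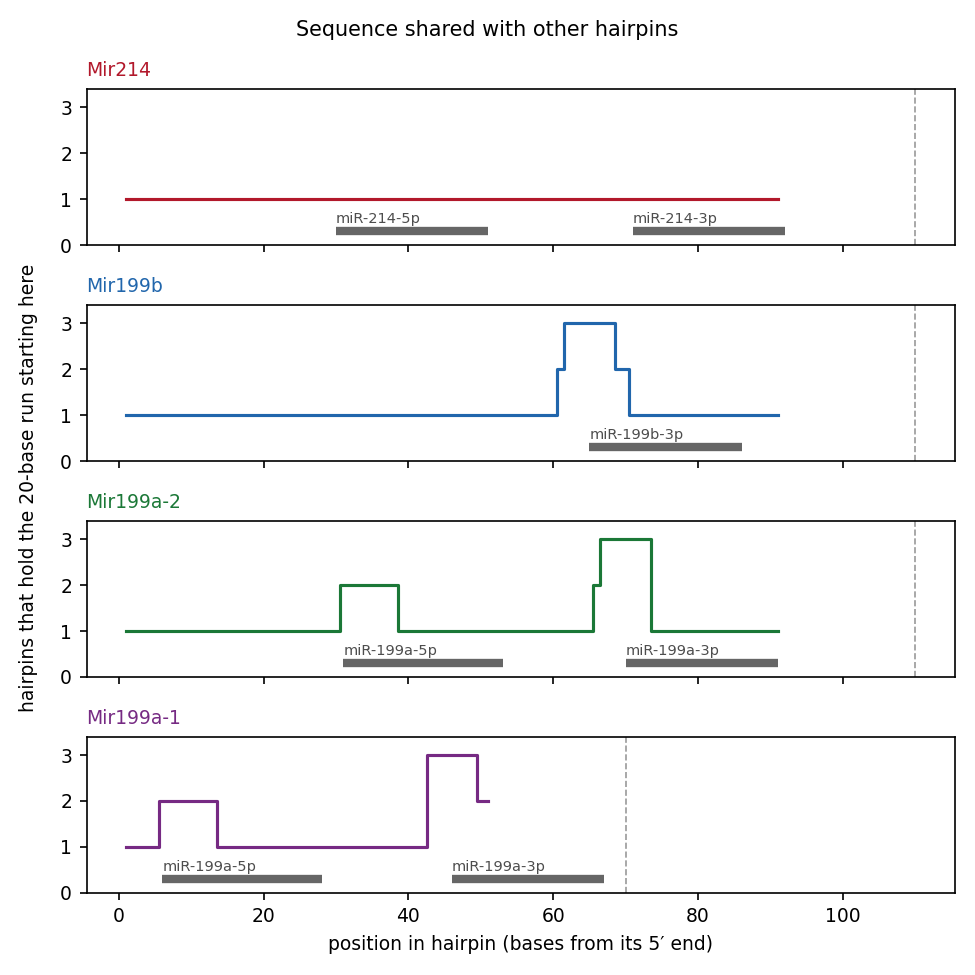
Sharing of sequence along the 4 hairpins. For each position in a hairpin (bases from its 5′ end, ending at the dashed line), the line gives how many of the 1005 hairpins hold the run of 20 bases that starts there; grey bars mark the listed arms. Mir214 stays at 1 throughout, Mir199b reaches 3 around its 3p arm, and Mir199a-2 and Mir199a-1 reach 2 at the 5p arm and 3 at the 3p arm.

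Runs of 20 bases were used to describe this along each hairpin. In Mir214, 0 of 91 runs occurred in another hairpin. In Mir199b, 10 of 91 did (11.0%), in Mir199a-2, 16 of 91 (17.6%), and in Mir199a-1, 17 of 51 (33.3%). Within the listed arms, every run of Mir199a-2, Mir199a-1 and miR-199b-3p occurred in another hairpin, and none of Mir214 did.

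The hairpins of Mir199a-2 and Mir199a-1 were alike over the arm miR-199a-5p for 0 bases before it and 4 bases after it, a shared run of 27 bases. Around miR-199a-3p these same hairpins shared 3 bases before and 1 after. The Mir199a-1 and Mir199b hairpins shared the longest run, 28 bases, which reached the annotated end of Mir199a-1. Over aligned bases, Mir199a-2 and Mir199a-1 were 92.6% identical and Mir199b and Mir199a-2 were 86.0% identical, while Mir214 shared no run longer than 7 bases with any of the other 3.

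Each gene lies inside a dynamin gene, on its opposite strand. Mir214 (ENSMUSG00000065516.1) and Mir199a-2 (ENSMUSG00000070126.1), with starts 5554 bases apart, lie within annotated exons of Dnm3os, which runs from 162217623 to 162225550 on chromosome 1, and opposite an intron of Dnm3. In other transcripts of Dnm3os an exon holds only part of these hairpins. Mir199b (ENSMUSG00000092807.1) lies opposite an intron of Dnm1 on chromosome 2, and Mir199a-1 (ENSMUSG00000065547.1) opposite an intron of Dnm2 on chromosome 9. Dynamins are GTPases that cut vesicles from membranes. The only other counted miRNA gene within 10 kb of any of the 4 was Gm23363, whose start lies 195 bases from that of Mir199b, with 11 counts in replicate 1 and 0 in replicate 2.

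Levels are own-strand read counts scaled to a library total of 1000000 own-strand counts over all miRNA genes (CPM). Those totals were 18467499 in replicate 1 and 2017294 in replicate 2, so replicate 1 was 9.15-fold deeper. Reads that map to several places stood in a summary row and on no gene; they made up 33.8% and 33.2% of what mapped in replicates 1 and 2. A gene's count does not separate its 5p from its 3p arm. Heart markers of the cardiomyocyte list (Mir208a, Mir208b, Mir499) were present, as the tissue label says, summing to 58391 and 63138 CPM in replicates 1 and 2. The muscle genes Mir1a-1, Mir133a-1 and Mir133b, outside that list, had low counts, with means of 2.23, 3.54 and 5.20 CPM. Any of their reads that map to several places are on no gene, so these counts do not show that miR-1 or miR-133 was scarce. Of the neural list, 1 of 6 counted genes was detected, Mir219a-1 at 28.9 and 14.4 CPM in replicates 1 and 2, while Mir124a-1, Mir124a-3 and Mir9-2 had 0 counts in both. Mir219a-2, not on that list, was also detected, at 32.9 and 20.3 CPM. The miR-124 and miR-9 genes are known as copies that share mature sequence, and both arms of Mir9-2 and of Mir9-3 occurred in another hairpin, so their low counts do not show that neural RNA was absent.

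Mir214 was by far the most counted of the 4 genes. It had 94408 counts in replicate 1 and 9448 in replicate 2, which were 5112 CPM (exact 95% Clopper-Pearson interval 5079.6 to 5145) and 4684 CPM (4589.7 to 4779). Its mean of 4898 ± 303 CPM (SD, n = 2) placed it 34th among the 419 detected genes, so that 91.9% of them stood below it. The libraries differed little beside the distance to the next member.

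Mir199b came next, with 5936 and 672 counts in replicates 1 and 2. Its levels were 321 CPM (313 to 330.0) in replicate 1 and 333 CPM (308 to 359) in replicate 2, with overlapping intervals. The mean was 327 ± 8.3 CPM (SD, n = 2), at rank 126. Mir199b is the miR-199 gene whose 5p stretch occurs in no other hairpin of the table.

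Mir199a-2, the neighbour of Mir214 in Dnm3os, had 751 counts in replicate 1 and 75 in replicate 2. These were 40.7 CPM (37.8 to 43.7) and 37.2 CPM (29.2 to 46.6), again with overlapping intervals. Its mean of 38.9 ± 2.5 CPM (SD, n = 2) gave rank 242. Mir199a-1 was counted least, with 49 counts in replicate 1 and 6 in replicate 2. Its levels of 2.65 CPM (1.96 to 3.51) and 2.97 CPM (1.09 to 6.47) averaged 2.81 ± 0.23 CPM (SD, n = 2), at rank 373, where 11.0% of detected genes stood below it. The wide interval in replicate 2 shows how few reads the value rests on.

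**Figure D2:**
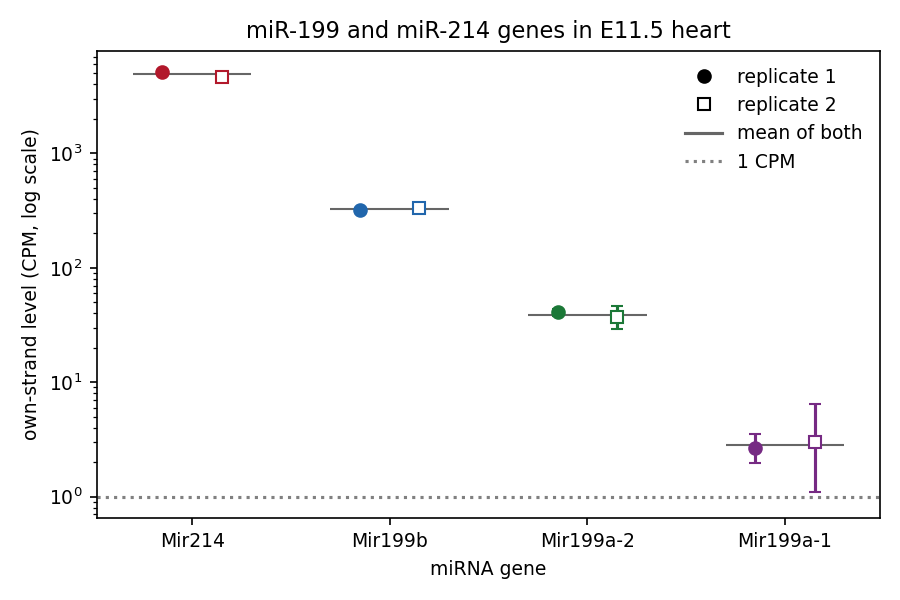
Own-strand level (CPM, log scale) of the 4 genes in replicate 1 (filled circles) and replicate 2 (open squares), with exact 95% intervals for counting error and grey lines at the mean of both. Mir214 stands near 4898 CPM, Mir199b near 327, Mir199a-2 near 38.9 and Mir199a-1 near 2.81, with the replicates of each gene close together.

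All 4 genes reached 1 CPM in both libraries, the detection limit used; over all counted genes 21.2% did (419 of 1973). Summed, the 4 genes took 0.548% of counts in replicate 1 and 0.506% in replicate 2, of which Mir214 made up 93.3% and 92.6%. On the opposite strand each of the 4 had 0 counts in both libraries, which allows up to 0.162 CPM in replicate 1 and 1.49 CPM in replicate 2 from the dynamin strand.

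**Figure D3:**
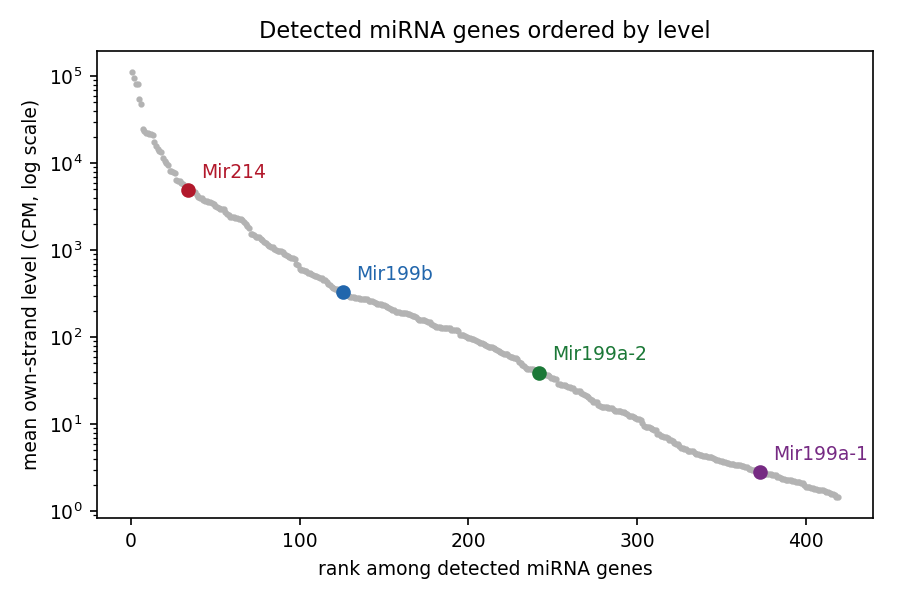
Mean own-strand level (CPM, log scale) of the 419 detected miRNA genes in order of level, with the 4 genes marked. Mir214 lies at rank 34, Mir199b at 126, Mir199a-2 at 242 and Mir199a-1 at 373.

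The order of levels was the same in both libraries, Mir214 above Mir199b above Mir199a-2 above Mir199a-1. All 6 pairs were compared within each library by the log2 ratio of counts, with an exact binomial interval. A ratio counted as beyond the spread if both intervals excluded equality on the same side and the mean exceeded the SD, and all 6 met this. Reads cover a short arm whole, so counts were not divided by hairpin length (110 bases, and 70 for Mir199a-1). How well different miRNAs are captured may differ, so ratios compare counts and not amounts of RNA.

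The ratio of Mir214 to Mir199a-2, hairpins of the same host RNA, was almost the same in both libraries. It was 126-fold in replicate 1 and 126-fold in replicate 2, with log2 ratios of 6.97 (6.87 to 7.08) and 6.98 (6.65 to 7.32). The mean was 6.98 ± 0.002 (SD, n = 2), an SD well inside the counting error of replicate 2. Mir214 over Mir199b gave 15.9-fold in replicate 1 and 14.1-fold in replicate 2, a mean log2 ratio of 3.90 ± 0.13. These intervals, 3.95 to 4.03 and 3.70 to 3.93, did not overlap.

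Among the miR-199 genes, Mir199b exceeded Mir199a-2 with a mean log2 ratio of 3.07 ± 0.13, that is 7.90-fold in replicate 1 and 8.96-fold in replicate 2. Mir199a-2 exceeded Mir199a-1 with 3.79 ± 0.21, or 15.3-fold and 12.5-fold. Mir199b exceeded Mir199a-1 with 6.86 ± 0.08, and Mir214 exceeded Mir199a-1 with 10.77 ± 0.21 (SD, n = 2 each). In the last pair replicate 2 gave an interval of 9.50 to 12.07, since its denominator is 6 counts.

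The order of the 4 levels ran opposite to the order of the share of 20-base runs found in other hairpins. Between Mir199a-2 and Mir199a-1, though, that share differed mainly through annotated length. The shared runs were 16 of 91 and 17 of 51, so sharing hardly ranks these genes. Mir214 had none, Mir199b had its 3p arm but not its 5p stretch, and Mir199a-2 and Mir199a-1 had both arms shared. Reads of miR-199a-3p or miR-199a-5p that match several loci would stand in the multimapping row; how many did cannot be read from these tables, and the part of uncounted reads in the order of levels was not tested. The counts of Mir199a-2, Mir199a-1 and Mir199b are therefore uncertain as measures of miR-199a and of the 3p arm that all 3 hairpins hold.

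The same split was taken over all genes with 2 listed arms. Both arms occurred in another hairpin for 19 genes, of which 5 were detected, among them Mir199a-2 and Mir199a-1; the median was 0 CPM over all 19 and 7.28 CPM over the detected ones. With 1 arm shared there were 49 genes, 36 of them detected, with medians of 22.1 CPM over all and 44.0 CPM over the detected ones. With none shared, as for Mir214, there were 487 genes, 248 of them detected, with medians of 1.81 CPM over all and 145 CPM over the detected ones. Over detected genes the median thus fell with each shared arm. Over all genes it was highest with 1 arm shared and lowest with both shared. Whether sharing lowered these counts was not tested. Many of these genes belong to families or clusters and are not independent, so the medians are a description.

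The distance between Mir214 and its neighbour was set beside that of other neighbours. Detected miRNA genes next to each other on the same strand within 10 kb formed 120 pairs. The median size of their log2 ratio was 2.92, or 7.59-fold, with quartiles at 1.66 and 5.05. At 6.98, Mir214 and Mir199a-2 ranked 14th of the 120. Pairs further apart included Mir302d with Mir367 at 11.07 and Mir99a with Mirlet7c-1 at 9.60, so hairpins of 1 locus often had very different counts. Mir367 had only 21 counts in replicate 1 and 5 in replicate 2, where the log2 ratios were 11.64 and 10.50. Reads that map to several places are in none of these counts, so the gaps are not gaps in amounts of RNA. Pairs share genes and clusters, and no test was made.

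**Figure D4:**
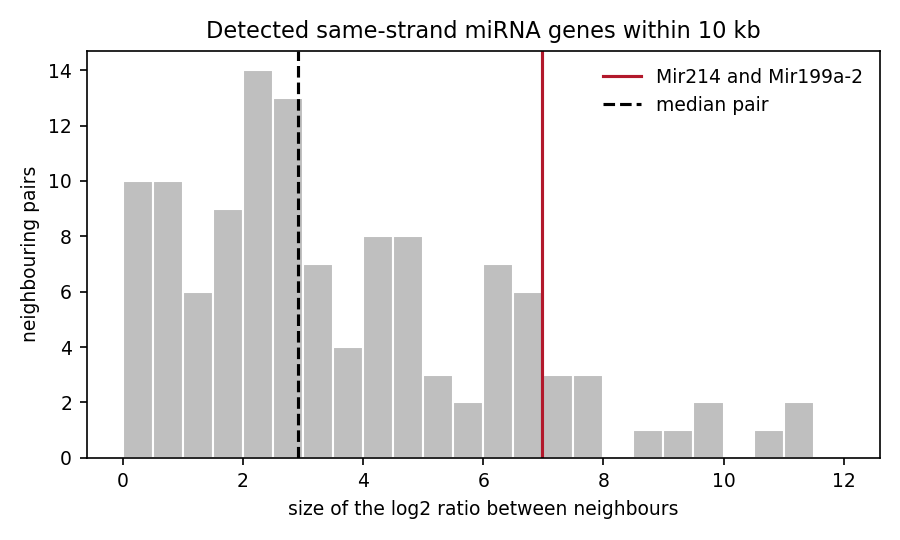
Number of neighbouring pairs of detected same-strand miRNA genes within 10 kb (120 pairs) by the size of their log2 ratio of CPM, mean of both libraries. The dashed line marks the median, 2.92, and the solid line Mir214 with Mir199a-2, 6.98.

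Replicate 1 was set against replicate 2 by a two-sided exact binomial test on each of 549 genes with a summed count of at least 10, conditional on the totals. This compares the libraries, not conditions, and its p-values allow for counting error only. None of the 4 genes passed an adjusted p of 0.05 with a 2-fold difference, against 2.55% of genes tested (14 of 549). Without a fold minimum Mir214 passed, as did 22.6% of genes tested.

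Mir214 was 1.09-fold in replicate 1 relative to replicate 2 (interval 1.07 to 1.11; exact binomial test, Benjamini-Hochberg adjusted p = 3.76e-15). edgeR's exact test, which also allows for the spread over genes, did not call Mir214. Its dispersion (biological coefficient of variation 18.2%) was estimated from these same 2 libraries, so it cannot decide on so small a difference. Mir199a-2 was also 1.09-fold, with a wider interval of 0.862 to 1.41 (exact binomial adjusted p = 0.808). Mir199b was 0.965-fold (0.891 to 1.05; exact binomial adjusted p = 0.695) and Mir199a-1 0.892-fold (0.382 to 2.55; exact binomial adjusted p = 0.995). The median size of the difference over the tested genes with reads in both libraries was 1.13-fold, and 37.1% of them differed less than Mir214 did. For Mir199a-1 the interval is too wide to show even a 2-fold difference at this depth.

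**Figure D5:**
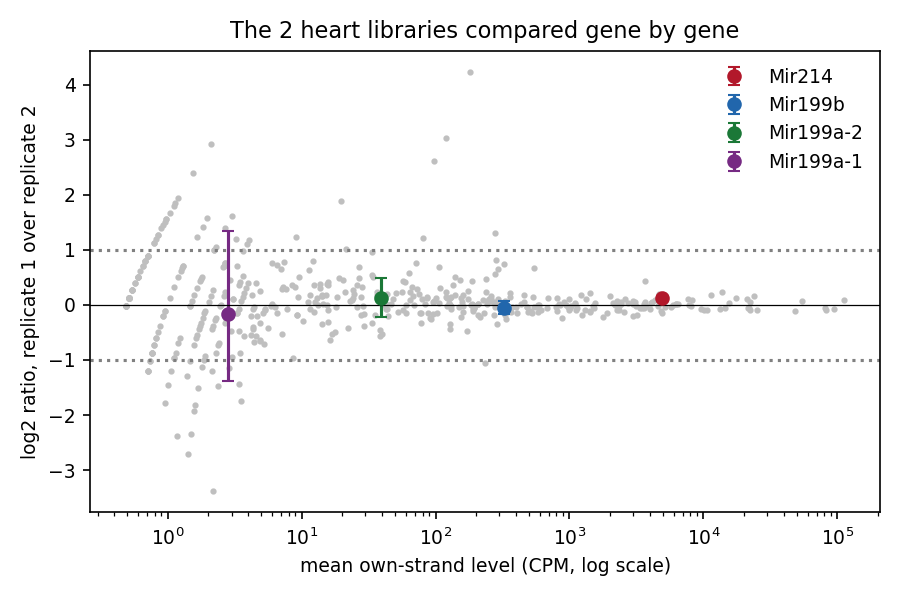
Log2 ratio of replicate 1 over replicate 2 against mean own-strand level (CPM, log scale) for tested genes with reads in both libraries (grey) and the miR-199 and miR-214 genes (colours, exact 95% intervals). Dotted lines mark 2-fold; the 4 genes lie between -0.16 and 0.13, and only Mir199a-1, at 6 counts in replicate 2, has an interval that crosses the dotted lines.

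The levels were then set beside a list of other miRNAs known from fibroblasts, mesenchyme or smooth muscle. Whole hearts do not show which cells held these miRNAs, and other cell types may have contributed. The list was chosen with earlier results of these data known, so its detection and median are a description. It holds Mir29a, Mir29b-1 and Mir29c but not Mir29b-2, which had 1.73 CPM in replicate 1 and 0.496 CPM in replicate 2, below the detection limit. All 12 genes of that list were detected, against 21.2% of all genes. Their median was 351 CPM, against 80.5 CPM over all detected genes. Mir214 stood below 3 of them, namely Mir143 at 94938 ± 3358 CPM, a smooth muscle miRNA, Mir21a at 21772 ± 618 CPM, which is raised in activated fibroblasts, and Mir22 at 13378 ± 436 CPM. It stood above Mir140, the cartilage miRNA, at 3990.3 ± 139.8 CPM, and Mir145a at 1238 ± 106 CPM (SD, n = 2 each). Mir199b stood below 6 of the 12 and Mir199a-2 below 9. Levels on the list ran down to means of 28.4 CPM for Mir221, 14.2 CPM for Mir222 and 3.31 CPM for Mir29b-1.

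Mir214 also lay between the cardiomyocyte miRNAs, above Mir499 at 1795 ± 186 CPM and below Mir208a at 10631 ± 523 CPM. The endothelial Mir126a stood at 82102 ± 3673 CPM. Of other tissues, the epithelial list (Mir203, Mir205 and the miR-200 family, with 7 of 7 genes detected) summed to 2144 CPM in replicate 1 and 1488 CPM in replicate 2, and the liver miRNA Mir122 stood at 395 and 160.1 CPM. Mir206, of skeletal muscle, stood at 65.6 and 48.6 CPM. The epithelial, liver and skeletal muscle values were higher in replicate 1, as Mir214 was, while Mir126a, Mir499 and Mir208a were lower there. The 12 genes known from fibroblasts, mesenchyme or smooth muscle summed to 133044 CPM in replicate 1 and 139729 CPM in replicate 2. Mir143 alone gave 92563 CPM in replicate 1 and 97313 CPM in replicate 2, most of each sum. Of the 12 genes, 10 were lower in replicate 1, opposite to Mir214. Some differed by little, such as Mir31 and Mir152 at log2 ratios of -0.006 and -0.033. The median log2 ratio over tested genes with reads in both libraries was 0.02. The 4 members themselves split, with 2 higher and 2 lower in replicate 1. The part of these values in the Mir214 difference was not tested.

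The genes nearest to each member in level over the 2 libraries were found by the distance of log2(CPM + 1). Nearest to Mir214 were Mir296 at 5102 ± 283 CPM, Mir100 at 4681 ± 475 CPM and Mir379 at 4615 ± 31 CPM. Nearest to Mir199b were Mir24-2 at 313 ± 6.5 CPM, Mir339 at 333 ± 11.7 CPM and Mir196b at 333 ± 30.6 CPM. Of the 12 nearest genes, 11 differed from their member by less than that member's SD, with Mir24-2 the exception. The genes were picked for closeness in these same libraries, so this count describes the choice and is no result. The nearest to Mir199a-2 were Mir19a, Mir452 and Mir758, between 36.5 and 39.6 CPM. Nearest to Mir199a-1 were Mir5619, Mir7052 and Mir1960, each with 46 or fewer counts in replicate 1 and 6 or 7 in replicate 2.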

How the data were processed

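Small RNA libraries from E11.5 mouse heart, 2 replicates of 1 group, were analysed. Raw counts of reads on each miRNA gene were deposited by the authors; the notes that accompany the tables name build mm10 and annotation GENCODE M4, and the aligner and counter are not named there or in the labels. The 3 count columns carry no header and were taken, from their layout, as unstranded, own-strand and opposite-strand (the last 2 summed to the first for all 1973 genes). Unmapped, multimapping, no-gene and ambiguous rows were left out of totals; multimapping reads were 20.8% of reads in replicate 1 and 24.1% in replicate 2. Gene IDs matched GENCODE M21 (same build) for 1894 genes, and a RefSeq hairpin by symbol for 869.

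CPM, exact intervals (counting error only, since PCR reads are not independent molecules), exact binomial tests and Benjamini-Hochberg values were computed in Python 3.11.15 with scipy 1.17.1; hairpins were aligned with Biopython 1.88. A count of 0 allows 3 counts. edgeR 4.0.16 (TMM, common dispersion, exact test) and DESeq2 1.42.0 (size factors) served as alternatives. edgeR's quasi-likelihood test was not possible with 1 library a side. The binomial test was tested on simulated data that held counting error only, so that check does not cover spread beyond it.

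Members and lists were chosen with earlier results of these data known. Named genes were the members, seed-sharing genes, neighbours within 10 kb, the 3 nearest genes in level, and listed genes. Mir302d, Mir367, Mir99a, Mirlet7c-1, Mir1a-1, Mir133a-1, Mir133b, Mir29b-2 and Mir219a-2 were named after their values were seen.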

Additional observations from a re-analysis of the deposited data

How the results depend on the processing

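No call or direction of the 6 ratios changed with 0.5 added to every count or with counts per base of hairpin (the last chosen after seeing the data). Unstranded counts could not change the ratios, since each of the 4 genes had 0 opposite-strand counts. With either replicate left out the directions held, but the call could not be made without an SD. Scaled to all mapped reads, with multimapping and no-gene reads in the total, the mean levels were 2664 CPM for Mir214, 179 for Mir199b, 21.2 for Mir199a-2 and 1.54 for Mir199a-1, since the total is larger. Unstranded counts lowered all 4 levels for the same reason, to 4676 CPM for Mir214, 312 for Mir199b, 37.2 for Mir199a-2 and 2.69 for Mir199a-1. Genes called between the libraries numbered 14, against 124 with no fold minimum and 4 by edgeR's exact test; with no fold minimum Mir214 was called, at a log2 ratio of 0.13. Over all alternatives its log2 ratio of replicate 1 over replicate 2 ran from 0.11 to 0.14 and its adjusted p from 1.29e-18 to 1. At a limit of 10 CPM, 3 of the 4 genes were detected, Mir199a-1 not, against 299 of 1973 genes (15.2%). No replicate could be left out of the library comparison, which needs both. No paired analysis was possible because there is 1 group. Depth limits Mir199a-1 most, at 6 counts in replicate 2.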
